A study of Mus musculus with 50 samples.

Results

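Synaptic vesicle and exocytosis genes were described in the dorsal root ganglion (DRG), the cluster of sensory neuron cell bodies beside the spinal cord, across 25 inbred mouse strains. The set held 43 genes listed by name, of 18193 genes that the arrays name by 1 symbol. Each gene was represented by its probe set with the highest mean, and a gene was kept when that probe set lay above log2 4 in at least 2 arrays. All 43 genes were kept, as were 11204 genes of the whole series. The log2 values are log2(intensity + 1).

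Every strain contributed 1 array from males and 1 from females, 50 arrays in all. Each array was hybridised with RNA pooled from 3 mice, so the male pool and the female pool were the only replicates of a strain. All mice were naive wildtype animals aged 2 months, with no injury, drug or engineered allele in any group. The strains, spelled as labelled, were AKR/J, BALB/CByJ, 129S1/Sv1mJ, BTBT T+tf/J, SJL/J, c57BL/6J, NZW/LacJ, BUB/BnJ, CBA/J, KK/HIJ, SM/J, PL/J, C58/J, RIIIS/J, NZO/HILtJ, DBA/2J, C3H/HeJ, NOD/LtJ, C57BR/cdJ, FVB/NJ, P/J, MRL/MpJ, SWR/J, A/J and NON/LtJ. The series set out to relate gene expression in these strains to chronic pain. The pools hide the spread between single mice. A p-value of the limma fits therefore sets a difference against the spread that remains between the male and female pool of a strain. That spread was taken after removing the sex difference common to all strains, and was pooled over the strains.

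In a nerve terminal, vesicles filled with glutamate by the transporters of the Slc17a family dock at the active zone, where Rims and Unc13 proteins make them ready for release. A vesicle SNARE (a Vamp protein) and the target SNAREs (Stx1a and Snap25) zip together to fuse the membranes. Synaptotagmins trigger that step on calcium entry, complexins hold the complex in check, and Nsf with its adaptors takes it apart afterwards. Dynamins, amphiphysin and synaptojanin then retrieve the membrane. DRG neurons make these proteins in the cell body and send most of them down the axon to terminals in the spinal cord and the skin.

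The ganglion's identity and the state of the arrays were checked first. All 17 pan-neuronal, all 7 nociceptor, all 7 satellite glia and all 7 Schwann cell markers used were kept, while of 12 spinal cord markers 2 were kept, Aqp4 and Gad1. Muscle, blood and liver markers differed widely between pools, with a median range over strains of 4.01 for 8 muscle genes, 4.19 for 5 blood genes and 4.82 for 6 liver genes. The male arrays of PL/J, BTBT T+tf/J and SWR/J held Xist at log2 8.97, 7.78 and 6.73, and the female SM/J array held the Y-linked Eif2s3y at 6.82. These 4 arrays thus held a transcript of the other sex above log2 6, a level set after seeing the data. The female SM/J array had Kdm5d, another Y-linked gene, at 2.67, within the 2.66 to 2.77 of all females. A further 4 male arrays held Xist at 4.98 to 5.42, against a male median of 2.94. The Gapdh 3′ minus 5′ control signal, which rises as RNA is shortened, was 0.60 in the male BTBT T+tf/J array and 0.34 in the female P/J array, against −0.73 to −0.09 in the other 48. In bulk ganglion RNA, fewer neurons and less RNA per neuron cannot be told apart.

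The sequence just before the transcription start is shown for 4 genes: Syt1, Sv2c and Slc17a7, because they stood out in single strains, and Syt2, because it was the only gene of the set with the letters of a repressor site linked to neuron-specific expression. RefSeq promoter sequence (build GRCm38.p6, from the C57BL/6J reference) matched 35 of the 43 genes by symbol. The 250 bases before the start were searched on both strands for the GC box GGGCGG, the TATA box TATAAA and the core of the RE1 site GCACCNNGGACAG, the site of the repressor REST. Capitals mark the matches, each read 5′ to 3′ on the gene's own strand.

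Syt1, chr10:109010976-109011225, minus strand: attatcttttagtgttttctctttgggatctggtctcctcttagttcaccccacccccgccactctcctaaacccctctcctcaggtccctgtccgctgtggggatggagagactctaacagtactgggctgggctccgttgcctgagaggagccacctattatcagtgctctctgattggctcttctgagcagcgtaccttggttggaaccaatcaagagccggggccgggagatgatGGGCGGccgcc
Syt2, chr1:134646362-134646611, plus strand: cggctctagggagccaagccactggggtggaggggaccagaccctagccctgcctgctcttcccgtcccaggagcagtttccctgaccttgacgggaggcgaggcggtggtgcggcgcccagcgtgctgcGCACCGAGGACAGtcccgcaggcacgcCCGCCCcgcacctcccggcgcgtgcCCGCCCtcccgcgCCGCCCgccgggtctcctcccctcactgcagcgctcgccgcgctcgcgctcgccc
Sv2c, chr13:96132578-96132827, minus strand: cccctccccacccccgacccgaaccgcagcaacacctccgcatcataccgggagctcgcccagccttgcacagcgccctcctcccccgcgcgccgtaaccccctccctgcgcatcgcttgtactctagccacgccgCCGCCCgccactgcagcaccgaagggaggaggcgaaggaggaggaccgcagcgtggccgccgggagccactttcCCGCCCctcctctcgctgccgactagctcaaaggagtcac
Slc17a7, chr7:45163671-45163920, plus strand: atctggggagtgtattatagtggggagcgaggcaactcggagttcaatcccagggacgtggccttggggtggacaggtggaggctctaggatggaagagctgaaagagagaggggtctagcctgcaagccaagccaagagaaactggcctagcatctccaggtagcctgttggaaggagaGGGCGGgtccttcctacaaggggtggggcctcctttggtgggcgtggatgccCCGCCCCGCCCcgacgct

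The RE1 core was found in 0.0761% of 32851 promoters of this length and, within the set, in Syt2 alone, 120 bases before this start. The second Syt2 start listed did not hold those letters. GC boxes lay before at least 1 listed start of 25 of the 35 genes and in 32.7% of all promoters, a share counted per start rather than per gene. In Slc17a7 the last pair of GC boxes overlaps by 1 base. TATA boxes lay in Rab3b and Sv2b, and in 12.4% of all promoters. These are matches of letters in the reference strain, and the other 24 strains' sequences were not analysed here.

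Strain made a detectable difference to 16 of the 43 genes (37.2%) in limma's moderated F test over strains with sex as a term and Benjamini-Hochberg adjustment over all probe sets tested. The same test called 26.1% of the 11204 genes. The median range between the highest and the lowest strain was 0.81 for the 43 genes and 0.82 for all genes, on the log2 scale. The range reached 1 in 14 of the 43 (32.6%), against 33.06% of all genes. The 16 called genes were, ordered by the measured range, Sv2c (whose range is a lower bound with no firm place in this order), Slc17a7, Vamp3, Syt1, Syt4, Rab3b, Syt2, Rims1, Cadps2, Napb, Rab3c, Vamp1, Amph, Cplx1, Syngr1 and Dnm3. Their widths belong to the chosen probe sets, and several were not seen by another probe set of the same gene, as described further on.

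**Figure D1:**
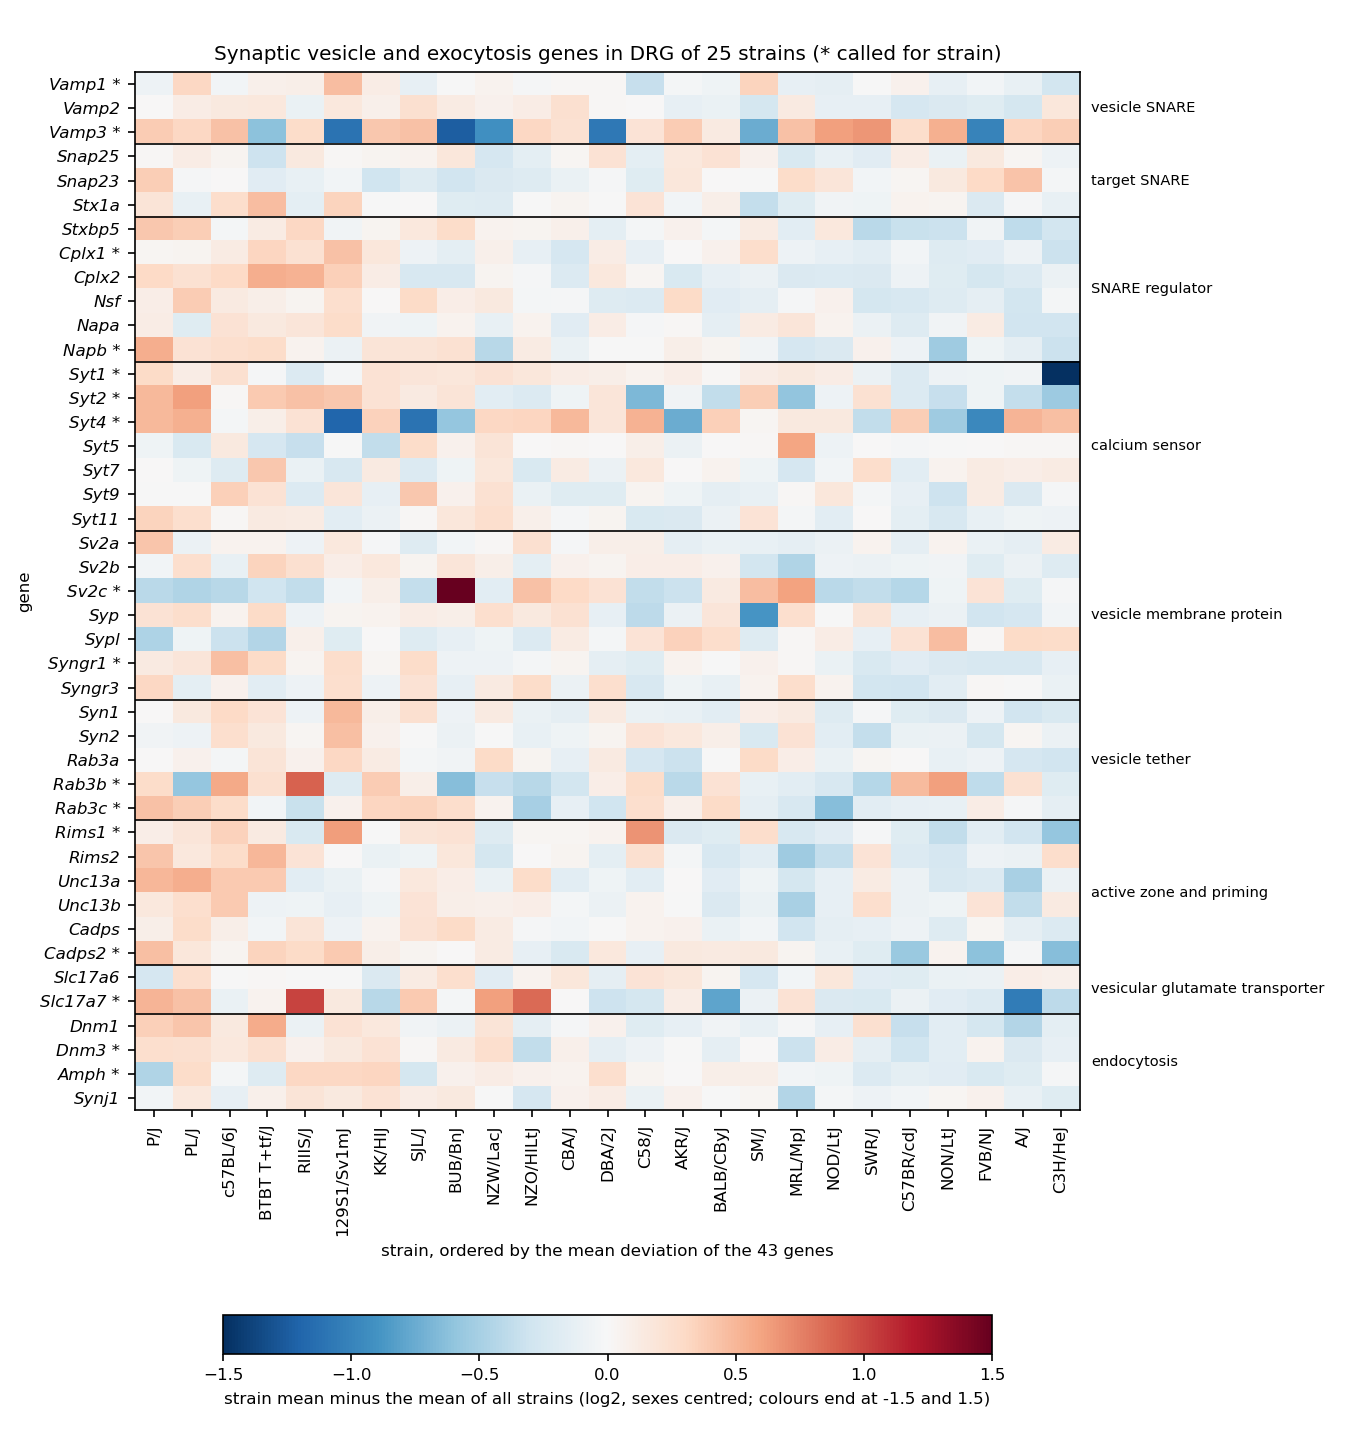
Strain mean of each of the 43 genes minus the mean of all 25 strains (log2, each sex centred on its own mean), with genes in rows by role and strains in columns ordered by the mean deviation of all 43 genes; asterisks mark the 16 genes called for strain. Single dark cells stand out for Sv2c in BUB/BnJ and Syt1 in C3H/HeJ, and 7 low strains for Vamp3.

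Among the vesicle SNAREs, Vamp1 and Vamp3 were called and Vamp2 was not. Vamp3, also called cellubrevin and found in most cell types, had a mean level of 8.47 and a range of 1.90 (adjusted p = 7.6e-07). Its strain means fell into 2 blocks with a gap of 0.75 between them. The 7 low strains were BUB/BnJ, 129S1/Sv1mJ, DBA/2J, FVB/NJ, NZW/LacJ, SM/J and BTBT T+tf/J, at 7.23 to 7.85. The other 18 strains lay at 8.60 to 9.14, with SWR/J at the top (8.94 in males and 9.33 in females). BUB/BnJ was lowest, with 7.30 in males and 7.16 in females. The arrays of the blocks did not separate completely: the female SM/J pool reached 8.45 while its male pool was the lowest of all at 6.99, and the lowest array of the high block was 8.39. Vamp1, a synaptobrevin prominent in spinal cord and brainstem, had a mean of 10.59 and ran from 10.35 and 10.14 (males and females) in C58/J to 11.24 and 10.87 in 129S1/Sv1mJ, a range of 0.81 with an adjusted p of 0.0203. The Vamp1 call was lost without the male 129S1/Sv1mJ array (adjusted p = 0.0697). Vamp2, the main synaptobrevin of brain synapses, had a mean of 9.97 and a range of 0.51 (adjusted p = 0.828).

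None of the target SNAREs was called. Snap25, the neuronal partner of syntaxin, had a mean of 13.38 and ranged over 0.52 between DBA/2J and BTBT T+tf/J (adjusted p = 0.236). Snap23, its counterpart in most other cells, had a mean of 5.32 and a range of 0.73 (adjusted p = 0.284). Stx1a, the plasma membrane syntaxin, had a mean of 7.63 and a range of 0.82 (adjusted p = 0.53). A missed threshold with 2 pools per strain does not show that the strains were alike.

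Of the regulators of the SNARE complex, Cplx1 and Napb were called. Cplx1, a complexin, had a mean of 11.90 and a range of 0.76 (adjusted p = 0.00149). It was lowest in C3H/HeJ (11.56 and 11.62 in males and females) and highest in 129S1/Sv1mJ (12.34 and 12.36). The pools of C3H/HeJ and 129S1/Sv1mJ did not overlap, and the male and female pools of each differed by less than 0.1. Napb, the neuronal form of the adaptor that brings Nsf to the complex, had a mean of 10.54 and ran from 9.84 and 10.17 in NON/LtJ to 10.88 and 11.28 in P/J (range 1.08, adjusted p = 0.0134). The female P/J array had the raised Gapdh signal. Other Napb probe sets disagreed on P/J. It was highest on 1423173_at and 1450888_at but lowest on 1427470_s_at (9.67 and 7.52), and 1452444_at deviated by −1.01 from its own mean there. With the pan-neuronal marker mean as a covariate the adjusted p of the chosen Napb probe set was 0.0778. No range adjusted for the covariate was computed, so this does not show a smaller difference. The uncalled regulators were Cplx2 (mean 8.37, range 0.81, adjusted p = 0.0829), Nsf (10.72, 0.65, adjusted p = 0.0592), Napa (9.88, 0.56) and Stxbp5, or tomosyn, an inhibitor of fusion (7.18, 0.81).

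The 7 synaptotagmins of the set were all above log2 4 in all 50 arrays, and 3 were called. Syt1, the fast calcium sensor of most central synapses, had a mean of 9.89 and a range of 1.90 (adjusted p = 5.96e-07). The range came from 1 strain: C3H/HeJ stood at 8.54 in males and 8.03 in females, whereas the other 48 arrays lay between 9.48 and 10.24. The next lowest strain, C57BR/cdJ, had a mean of 9.68, and P/J was highest with 10.12 and 10.24. Leaving C3H/HeJ aside, the remaining 24 strain means spanned no more than 9.68 to 10.18.

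Syt4, a synaptotagmin of dense-core vesicles that does not act as a classic calcium sensor, had a mean of 10.80 and a range of 1.72 (adjusted p = 0.000115). Its low strains were 129S1/Sv1mJ (9.61 and 9.62), SJL/J (9.80 and 9.59) and FVB/NJ (9.24 in males but 10.43 in females). The highest strain means were in PL/J (11.53 and 11.14) and C58/J (11.20 and 11.45). Unlike Syt1, the Syt4 levels formed a gradient, with a largest gap between neighbouring strains of 0.33. The highest single array, the female P/J pool at 11.98, had a male partner at 10.59.

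Syt2, the fast sensor of spinal and hindbrain pathways, had a mean of 8.92 and a range of 1.30 (adjusted p = 0.00169). It was lowest in C58/J (8.20 and 8.28), followed by MRL/MpJ (8.67 and 7.99) and C3H/HeJ (8.56 and 8.19). The top strains were PL/J (9.64 and 9.43), P/J (9.11 and 9.70) and RIIIS/J (9.42 and 9.30). The order was graded, with no gap above 0.17. The remaining synaptotagmins did not pass: Syt5 (mean 6.87, range 0.97), Syt7, the slow high-affinity sensor (9.65, 0.65), Syt9 (9.69, 0.71) and Syt11, the close relative of Syt4 (11.68, 0.57, adjusted p = 0.0533).

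**Figure D2:**
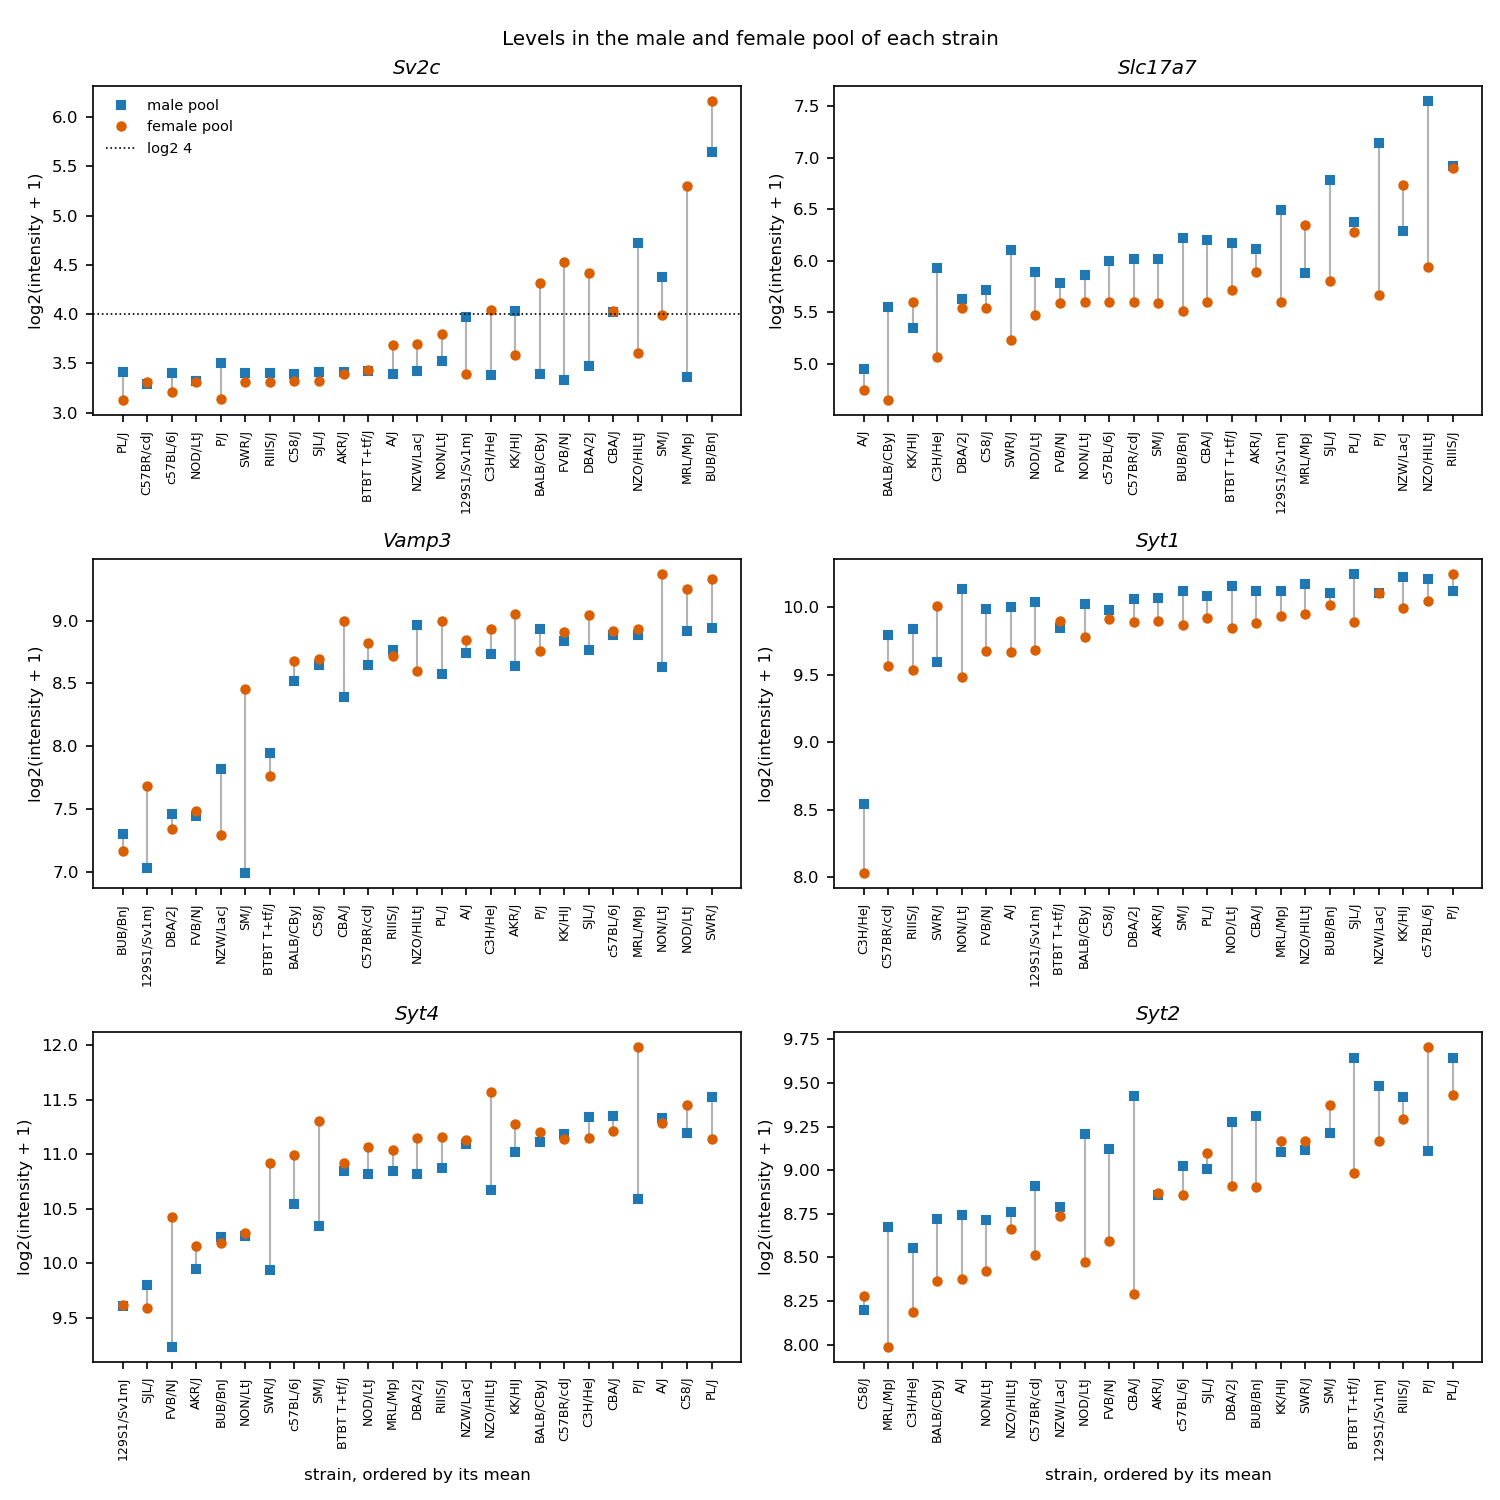
log2(intensity + 1) of Sv2c, Slc17a7, Vamp3, Syt1, Syt4 and Syt2 in the male pool (squares) and the female pool (circles) of each strain, strains ordered within each panel by their mean; the grey line joins the pools of a strain and the dotted line in the Sv2c panel is log2 4. Sv2c and Syt1 each have 1 strain apart from all other arrays, Vamp3 has 7 low strains, and the other panels are gradients.

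Of the vesicle membrane proteins, Sv2c and Syngr1 were called. Sv2c, the SV2 glycoprotein with the most restricted expression in brain and a receptor of botulinum neurotoxin A, was near the floor in most strains: 12 of the 50 arrays lay above log2 4, and the gene mean was 3.72. BUB/BnJ was the exception, with 5.65 in males and 6.16 in females. The next strain mean was MRL/MpJ at 4.33, which rested on its female pool (5.30 against 3.36 in males). The low end lay near the floor, so the measured range of 2.63 stands for at least 1.90, with every array under log2 4 raised to 4. The call (adjusted p = 0.00765) depended on both BUB/BnJ arrays being present, since the adjusted p was 0.0557 without the male and 0.114 without the female array. Syngr1, a synaptogyrin, a small membrane-spanning vesicle protein, had a mean of 9.45 and ran from 9.34 and 9.08 in FVB/NJ to 9.91 and 9.89 in c57BL/6J (range 0.69, adjusted p = 0.00497).

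The uncalled membrane proteins were Sv2a (mean 7.24, range 0.61), Sv2b (9.56, 0.79), Syngr3 (8.74, 0.60), Sypl (8.69, 0.92) and Syp. Syp, or synaptophysin, the classic vesicle marker, had a mean of 9.63 and a wide range of 1.17 but an adjusted p of 0.794. Its low value belonged to SM/J, where the male pool read 7.82 and the female pool 9.65. The spread between those pools was larger than the difference between most strains.

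The proteins that tether vesicles gave 2 calls among 5 genes. Rab3b, a vesicle GTPase, had a mean of 5.11 and ran from 4.67 and 4.29 in BUB/BnJ to 5.82 and 6.19 in RIIIS/J (range 1.52, adjusted p = 0.00237). Rab3c had a mean of 10.33 and ran from 9.88 and 9.52 in NOD/LtJ to 10.51 and 11.02 in P/J (range 1.07, adjusted p = 0.00419). Rab3a, the best studied member of that family, had a mean of 10.05 and a range of 0.63 (adjusted p = 0.235). The synapsins, which cluster vesicles, were not called either: Syn1 had a mean of 9.87 and a range of 0.77 (adjusted p = 0.097), and Syn2 a mean of 8.35 and a range of 0.81 (adjusted p = 0.585). Both synapsins had their highest mean in 129S1/Sv1mJ.

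Among the active zone and priming proteins, Rims1 and Cadps2 were called. Rims1, the scaffold that links Rab3 to Unc13, had a mean of 8.09 and a range of 1.25 (adjusted p = 0.000247). Its pools of 1 strain were close together: 7.52 and 7.51 in C3H/HeJ at the bottom, 8.77 and 8.76 in C58/J and 8.67 and 8.77 in 129S1/Sv1mJ at the top. No other array exceeded 8.56. A further Rims1 probe set, 1438305_at, was also highest in C58/J but lowest in NON/LtJ. In 129S1/Sv1mJ it deviated by 0.01 from its own mean, against 0.63 on the chosen one, and in C3H/HeJ by −0.24 against −0.58. Cadps2, a priming factor of dense-core vesicles, had a mean of 8.74 and ran from 8.27 and 7.93 in C3H/HeJ to 9.11 and 9.27 in P/J (range 1.09, adjusted p = 0.00088). C3H/HeJ, FVB/NJ and C57BR/cdJ formed a low trio for Cadps2, with all 6 arrays at or below 8.34 and all other arrays at or above 8.49. The uncalled members were Cadps (mean 11.46, range 0.58), Rims2 (8.58, 1.03, adjusted p = 0.269), Unc13a (7.28, 1.03, adjusted p = 0.143) and Unc13b (6.76, 0.87).

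The vesicular glutamate transporters differed in their calls on the chosen probe sets. Slc17a7 (VGLUT1), the form of large mechanosensory afferents, had a mean of 5.90 and a range of 2.06 (adjusted p = 0.00553). A/J was lowest with 4.95 in males and 4.75 in females, and RIIIS/J was highest with 6.92 and 6.90. Single male pools went higher than RIIIS/J, 7.55 in NZO/HILtJ and 7.14 in P/J, but their female partners read 5.94 and 5.67. Slc17a6 (VGLUT2), the form of most DRG neurons, had a mean of 11.43 and a range of 0.51 (adjusted p = 0.22), the narrowest among the chosen probe sets of the 43 genes. Its further probe set, 1418610_at, had a range of 1.04 and was called in the strain test (adjusted p = 0.00417).

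Of the endocytosis genes, Amph and Dnm3 were called. Amph, or amphiphysin, a membrane-bending adaptor, had a mean of 9.90 and ran from 9.71 and 9.18 in P/J to 10.32 and 10.13 in KK/HIJ (range 0.78, adjusted p = 0.0309). The Amph call was lost in 5 of the 50 fits that left out 1 array, those without the male or female RIIIS/J array or the female 129S1/Sv1mJ, KK/HIJ or P/J array (adjusted p of 0.0555 to 0.0608). It was also lost without the pair of arrays with the raised Gapdh signal, of which the female P/J array is one (adjusted p = 0.0629). Dnm3, a dynamin of neurons, had a mean of 10.83 and ran from 10.39 and 10.54 in NZO/HILtJ to 10.98 and 11.19 in NZW/LacJ (range 0.62, adjusted p = 0.0102). The uncalled genes were Dnm1 (mean 10.15, range 0.99, adjusted p = 0.189) and Synj1 (10.38, 0.66).

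Each strain was then set against the mean of the other 24, with a call requiring a difference of at least 1 and an adjusted p under 0.05. Of 1075 gene and strain pairs, 11 were called (1.02%), against 0.854% of the pairs of all genes. They involved 5 genes and 8 strains, and 9 of the 11 were lower in the named strain. Sv2c was higher in BUB/BnJ (fitted difference 2.27 ± 0.31 SE, adjusted p = 1.22e-05), where both pools lay above the highest other array of 5.30. Because most other arrays were near the floor, the difference is given as at least 1.83, with every array under log2 4 raised to 4. Syt1 was −1.67 ± 0.11 in C3H/HeJ (adjusted p = 1.67e-11), where both pools lay below the lowest other array of 9.48. The other 9 pairs did not stand outside all other arrays.

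Vamp3 gave 4 of the calls, with differences of −1.29 in BUB/BnJ (adjusted p = 0.000116), −1.16 in 129S1/Sv1mJ, −1.11 in DBA/2J and −1.05 in FVB/NJ, each with an SE of 0.20 and each lower in both pools. Syt4 gave 3, with −1.24 in 129S1/Sv1mJ (adjusted p = 0.000962), −1.15 in SJL/J and −1.01 in FVB/NJ, each with an SE of 0.23. In FVB/NJ the Syt4 difference was −1.49 in males and −0.53 in females. Slc17a7 gave 2, with −1.09 ± 0.25 in A/J (adjusted p = 0.00972) and 1.05 ± 0.25 in RIIIS/J (adjusted p = 0.0131). A pair of calls each came from 3 strains, BUB/BnJ, 129S1/Sv1mJ and FVB/NJ, and in each the Vamp3 call was 1 of the pair.

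A probe set reads a short stretch of a transcript, so the other probe sets of the same genes were examined. A further 59 probe sets, in 29 of the 43 genes, passed the filter, and 17 of them (28.8%) were called for strain. Their strain means correlated with those of the chosen probe set at r above 0.5 in 15 cases, between 0 and 0.5 in 33 and below 0 in 11, over the same 25 strains and arrays. Of the 10 called genes with a further probe set, 3 had one that was also called. Conversely, 8 genes that were not called on the chosen probe set had a called one, namely Cplx2, Napa, Rab3a, Slc17a6, Syn2, Sypl, Syt7 and Syt11.

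The further probe sets did not show the Vamp3 blocks. The chosen one, 1437708_x_at, carries the suffix for probes that can also match other transcripts, and the 4 others had adjusted p-values of 0.331 to 0.808 in the strain test. In BUB/BnJ their differences were −0.25 to −0.07, against −1.29 for the chosen one. In BTBT T+tf/J, whose male array had the high Gapdh signal, 1421102_a_at and 1433916_at deviated by −0.82 and −0.58. For Syt4 the second probe set, 1415845_at, differed by −0.41 in 129S1/Sv1mJ (adjusted p = 0.0939), by 0.21 in SJL/J (adjusted p = 0.557) and by −0.00 in FVB/NJ (adjusted p = 0.999).

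The Syt1 probe sets went in different directions in C3H/HeJ. The chosen 1433884_at was −1.67 there and 1421990_at was −1.52 ± 0.53 (adjusted p = 0.133), while 1431191_a_at was 0.78 ± 0.23 higher (adjusted p = 0.0569) and had its highest strain mean in C3H/HeJ, with 8.13 in males and 7.82 in females. The remaining Syt1 probe set, 1438282_at, had a lower mean level of 4.97 and differed by 0.205 ± 0.273 in C3H/HeJ (adjusted p = 0.868). For Syt11 the picture was the reverse of Syt1. In KK/HIJ the chosen probe set and 3 further ones deviated from their own means by −0.09 to 0.16, but 1456464_x_at read 8.62 in males and 8.65 in females there, against 11.35 to 12.02 in the other 48 arrays, a difference of −3.01 ± 0.10 (adjusted p = 3.73e-18). For Cplx1, 1417746_at followed the chosen probe set with r = 0.89 and had the same highest and lowest strains, 129S1/Sv1mJ and C3H/HeJ. The third Cplx1 probe set, 1417747_at, did not: it was lowest in P/J, at −1.63 from its own mean against 0.03 on the chosen one, and highest in MRL/MpJ, at 0.88 against −0.08.

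Other genes, picked here after their values were seen, had further probe sets that shared a pattern the chosen one lacked. All 4 further Dnm3 probe sets were called, RIIIS/J was highest on each, and C3H/HeJ was lowest on 3 of them. On 1438801_at C3H/HeJ read 3.87 in males and 5.27 in females, a difference of −1.64 ± 0.47 (adjusted p = 0.0471), and RIIIS/J 7.66 and 7.25. The chosen Dnm3 probe set deviated by −0.12 in C3H/HeJ and 0.07 in RIIIS/J.

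The 3 further Syn2 probe sets were also called, with C3H/HeJ lowest on each. On 1460230_at it read 7.14 and 6.74 in males and females (range 1.69, adjusted p = 1.67e-05), while the chosen Syn2 probe set deviated by −0.08 there. Cplx2 1421477_at ran from 4.07 and 1.89 in 129S1/Sv1mJ, near the floor, to 6.50 and 7.66 in P/J, whose female array had the raised Gapdh signal (adjusted p = 0.000138). Its range was at least 3.06, with every array under log2 4 raised to 4. Its chosen counterpart had a range of 0.81, and their strain means correlated at r = 0.22.

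**Figure D3:**
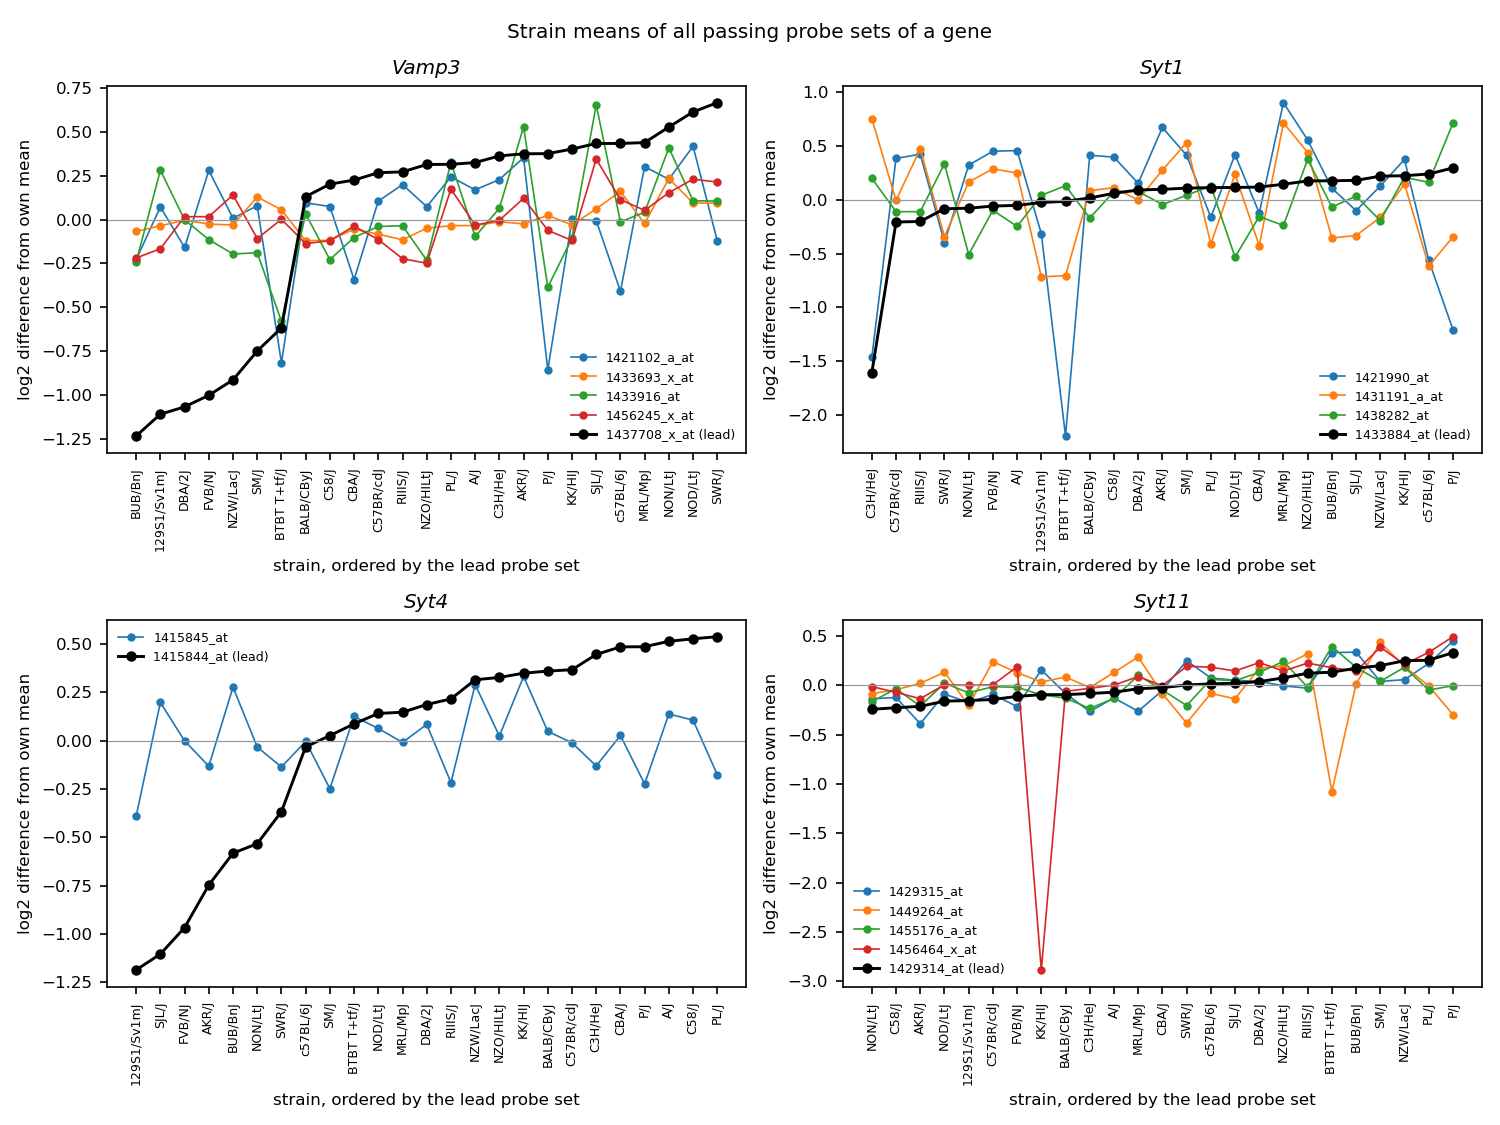
Strain means of every passing probe set of Vamp3, Syt1, Syt4 and Syt11, each as the log2 difference from its own mean, with strains ordered by the chosen (lead) probe set, drawn in black. Of the 7 low strains of Vamp3, BTBT T+tf/J is also low on 2 other lines, and of the low Syt4 strains 129S1/Sv1mJ is also lowest on the other line. C3H/HeJ is low on 2 of the Syt1 lines, highest on 1 and at 0.20 on the remaining one, and KK/HIJ is low on 1 of the 5 Syt11 lines.

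Some further probe sets lay far from the mean of their sex in the pair of arrays with the raised Gapdh control signal. No relation with that signal over all arrays is given here. The counts that follow were not made for all tested probe sets, so no background share can be set beside them. In the male BTBT T+tf/J array 11 of the 59 further probe sets lay at least 1 below the mean of their sex, and in the female P/J array 12 did, with 8 in common. None of the 43 chosen probe sets lay that low in either array, but Unc13a (8.43) and Syt4 (11.98) lay at least 1 above the mean of their sex in the female P/J array. Of the further probe sets 2 lay that high in the male BTBT T+tf/J array and 5 in the female P/J array. The Syt1 probe set 1421990_at read 3.78 in the male BTBT T+tf/J and 4.91 in the female P/J array, against a median of 8.11 elsewhere. Vamp1 1421862_a_at read 3.80 and 2.57, against a median of 6.60. The part of RNA state in the strain values of those 2 strains was not tested for single probe sets; without these arrays 17 of the 43 genes were called for strain, and Amph was not (range 0.59, adjusted p = 0.0629).

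The balance of related genes was followed as the log2 difference between the chosen probe sets of 2 genes in a strain, relative to the mean of that difference. It shifted most for the glutamate transporters, by 2.16 between A/J, where Slc17a6 over Slc17a7 was 1.14 above its mean, and RIIIS/J, where it was −1.02. Syt4 over Syt11 shifted by 1.88, from −1.13 in SJL/J to 0.75 in C58/J. Syt1 over Syt2 shifted by 1.80, from −1.06 in C3H/HeJ to 0.74 in C58/J, the strain with the lowest Syt2. Slc17a7, Syt4 and both Syt1 and Syt2 were the called genes of these pairs. The SD between the pools of a strain was 0.39, 0.29 and 0.24. These shifts belong to the chosen probe sets. In SJL/J the chosen Syt4 probe set deviated by −1.10 from its own mean, but 1415845_at by 0.20. In C3H/HeJ the chosen Syt1 probe set deviated by −1.60, and 1421990_at, 1431191_a_at and 1438282_at by −1.46, 0.75 and 0.20.

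On the chosen probe sets Rims1 over Rims2 shifted by 1.46, from C3H/HeJ to 129S1/Sv1mJ, and Cadps over Cadps2 by 1.12, from 129S1/Sv1mJ to FVB/NJ. The other 9 pairs shifted by 0.65 to 1.04, the least for Cplx1 over Cplx2, Syn1 over Syn2 and Dnm1 over Dnm3. For Cplx1 over Cplx2 and for Unc13a over Unc13b the male and female pools ranked the strains differently, with r of −0.13 and −0.09 over 25 strains. No test was made of these balances.

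When all 43 genes were averaged as deviations from the mean of their sex, strains differed little. P/J was highest (0.07 in males and 0.24 in females), then PL/J (0.09 and 0.20), c57BL/6J (0.05 and 0.19) and BTBT T+tf/J (0.13 and 0.10). C3H/HeJ was lowest (−0.05 and −0.22), then A/J (−0.08 and −0.16) and FVB/NJ (−0.13 and −0.12). The highest male array (BTBT T+tf/J) and the highest female array (P/J) were also the arrays with the raised Gapdh signal. Among the other 48 arrays, that signal was highest in the c57BL/6J female (−0.09) and the SWR/J female (−0.21). The PL/J male (−0.31) and female (−0.35) arrays came next. PL/J and c57BL/6J were thus near the top in both, while SWR/J had a low vesicle gene mean of −0.07. The part of the Gapdh signal in the order was not tested. In P/J 33 of the 43 genes were above their mean, and in C3H/HeJ 10 were. CBA/J showed how loose the middle order was, with 0.11 in males and −0.10 in females. Male and female pools correlated at r = 0.55 and rho = 0.58 over 25 strains, given as a description.

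The average moved with neuron markers. The mean deviation of the 17 pan-neuronal markers ran from −0.22 in C3H/HeJ to 0.19 in P/J and correlated with that of the vesicle genes at r = 0.84 and rho = 0.79 over 25 strains, on the same arrays. Without P/J and BTBT T+tf/J, left out after seeing the data, r was 0.79 and rho 0.74 over 23 strains. The vesicle gene mean correlated with 8 markers of large myelinated neurons at r = 0.65, with 7 nociceptor markers at r = 0.36 and with 7 Schwann cell markers at r = −0.24. The blood marker mean ran from −1.35 in BUB/BnJ to 1.85 in C3H/HeJ (r = −0.51) and the liver marker mean from −0.59 in BUB/BnJ to 3.73 in DBA/2J (r = −0.29). The macrophage (6 genes), fibroblast and fat (5) and endothelial (4) marker means correlated with it at r = −0.52, −0.52 and −0.50. In C3H/HeJ, the strain with the lowest vesicle gene mean, the blood markers stood at 1.85 and the liver markers at 1.51. FVB/NJ had liver markers at 1.96 and a vesicle gene mean of −0.12. But AKR/J had blood markers at 1.57 with a vesicle gene mean of −0.02, and DBA/2J liver markers at 3.73 with −0.01. The part of blood and liver in the order was not tested. With the pan-neuronal mean as a covariate, 15 of the 43 genes were called for strain.

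**Figure D4:**
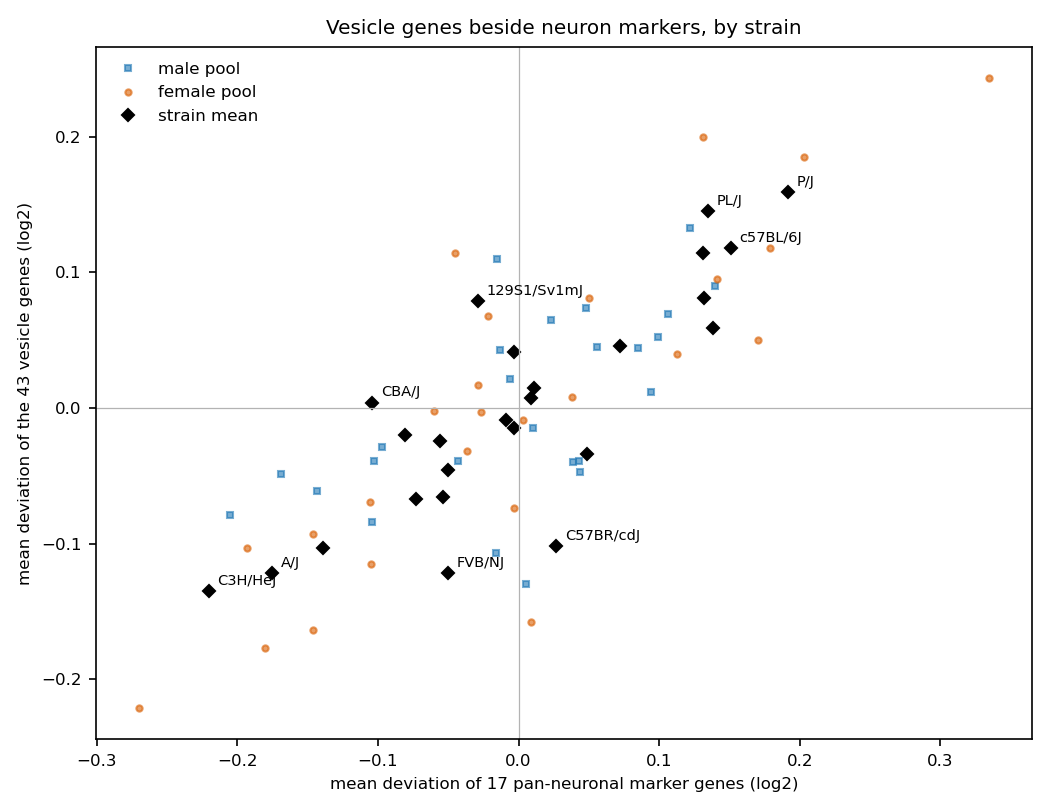
Mean deviation of the 43 vesicle genes against that of 17 pan-neuronal markers (both log2, each gene centred within sex), for the male pools (squares), the female pools (circles) and the strain means (diamonds). Strains with higher neuron markers had higher vesicle genes (r = 0.84 over the 25 strain means), with P/J at the upper and C3H/HeJ at the lower end.

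Not all genes followed that order. The strain means of 17 genes correlated with the mean of the other 42 at r above 0.5, led by Syngr1 (0.78), Dnm1 (0.73) and Stxbp5 (0.73), and 8 genes correlated below 0. Of the called genes the departing ones, with r below 0, were Vamp3 (r = −0.26), Sv2c (−0.24), Syt4 (−0.10) and Rab3b (r = −0.00, in effect 0). Of the uncalled genes they were Sypl (−0.74), Snap23 (−0.40), Syt5 (−0.33) and Syt7 (−0.20). Sypl, Snap23 and Vamp3 are the members of their families that non-neuronal cells also express, as background. That trait was not assessed for the departing Sv2c, Syt4, Rab3b, Syt5 and Syt7, and its bearing on the order was not tested. The Vamp3 value rests on the chosen probe set, whose blocks the further ones did not show. The second Syt4 probe set correlated with the chosen one at only r = 0.145, and Sv2c lay above log2 4 in 12 arrays only. Snap25 (r = 0.01) and Slc17a6 (r = 0.02), both widespread in DRG neurons, were near 0 and had narrow ranges on their chosen probe sets. Their further probe sets, 1447763_at and 1418610_at, had ranges of 1.23 and 1.04.

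How far the male and female pools reproduced a gene's strain order was measured by their correlation over the 25 strains, with 100000 two-sided permutations and adjustment over the 43 genes. It was below an adjusted p of 0.05 in 17 genes. The correlation was not computed for genes outside the set, so no share of all genes can be set beside that count. Vamp3 had r = 0.81 (permutation p = 3e-05) and rho = 0.56 (permutation p = 0.00403), and r = 0.91 once 129S1/Sv1mJ and SM/J, the outermost male pools, were left out. Cplx1 had r = 0.72 (permutation p = 6e-05) and rho = 0.71 (permutation p = 0.00015), and r = 0.64 without 129S1/Sv1mJ and SM/J. Syt1 had r = 0.86 (permutation p = 0.00335) but rho = 0.40 (permutation p = 0.0507), and r = 0.53 without C3H/HeJ and SWR/J.

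Sv2c did not hold up in the same way. It had r = 0.53 (permutation p = 0.0213, adjusted 0.0509) and rho = 0.15 (permutation p = 0.488), and r = 0.06 without BUB/BnJ and NZO/HILtJ, so its relation rested on those strains. Vamp2 (r = −0.21), Syp (−0.20) and Syn2 (−0.02) had correlations below 0.

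The male and female arrays appear to have been normalized as separate sets: the lowest intensity was 1.63 to 1.66 on every male array and 1.73 to 1.74 on every female array. Sex and processing set therefore cannot be told apart. In limma's test of sex with strain as a block, 23 of the 43 genes were called, 15 higher in males (34.9%, against 24.7% of all genes) and 8 lower in males (18.6%, against 34.3% of all genes). Each sex difference belongs to the chosen probe set of a gene. Sex calls of the further probe sets are not given here, and those probe sets need not share the size or sign. The median male minus female difference was 0.05 for the 43 genes and −0.04 for all genes. All 23 genes kept their direction under quantile normalization of the 50 arrays together and under centring on the median, and 22 kept the call under each; the exception was Vamp3 (adjusted p = 0.139 and 0.0587). Quantile normalization gave 19 genes higher and 7 lower in males.

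Dnm1, the main neuronal dynamin, had the largest difference, 0.65 ± 0.07 (SE), with male pools at 10.12 to 11.22 (median 10.47) and female pools at 9.18 to 10.63 (median 9.74). The ranges overlapped, and males were higher in 23 of 25 strains (adjusted p = 1.18e-08). Syt5 was 0.63 ± 0.06 higher in males (adjusted p = 1.54e-10), with male pools at 6.73 to 7.49 and female pools at 5.82 to 7.44, and was higher in males in all 25 strains. Cplx2 and Slc17a7 were each 0.45 higher in males, in 23 and 22 strains. The other genes higher in males were Sv2a (0.35), Syngr3 (0.34), Napa (0.32), Syngr1 (0.28), Amph (0.28), Vamp1 (0.26), Syt2 (0.25), Snap23 (0.24), Stxbp5 (0.23), Syn1 (0.23) and Syt1 (0.20).

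Syt7 had a male minus female difference of −0.48 ± 0.06 (adjusted p = 1.48e-07), with male pools at 8.92 to 10.12 and female pools at 9.38 to 10.21, and the female pool was higher in 23 of 25 strains. The difference of Sypl was −0.46 ± 0.07, with the female pool higher in 22 strains. The others lower in males were Stx1a (−0.30), Slc17a6 (−0.29), Syt4 (−0.27), Nsf (−0.26), Synj1 (−0.25) and Vamp3 (−0.18). On their chosen probe sets the 2 glutamate transporters thus had differences of opposite sign, Slc17a7 higher and Slc17a6 lower in males. For the further Slc17a6 probe set, 1418610_at, the difference over the 25 strains is not given here. In its highest strain, RIIIS/J, it read 10.54 in males and 10.13 in females. In its lowest, P/J, it read 9.82 and 8.77, but that female array had the raised Gapdh signal. Those 2 strains do not give the sign over all strains. None of the 6 active zone and priming genes was called for sex in the values as deposited, while quantile normalization added Cadps (0.15, adjusted p = 0.00689).

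**Figure D5:**
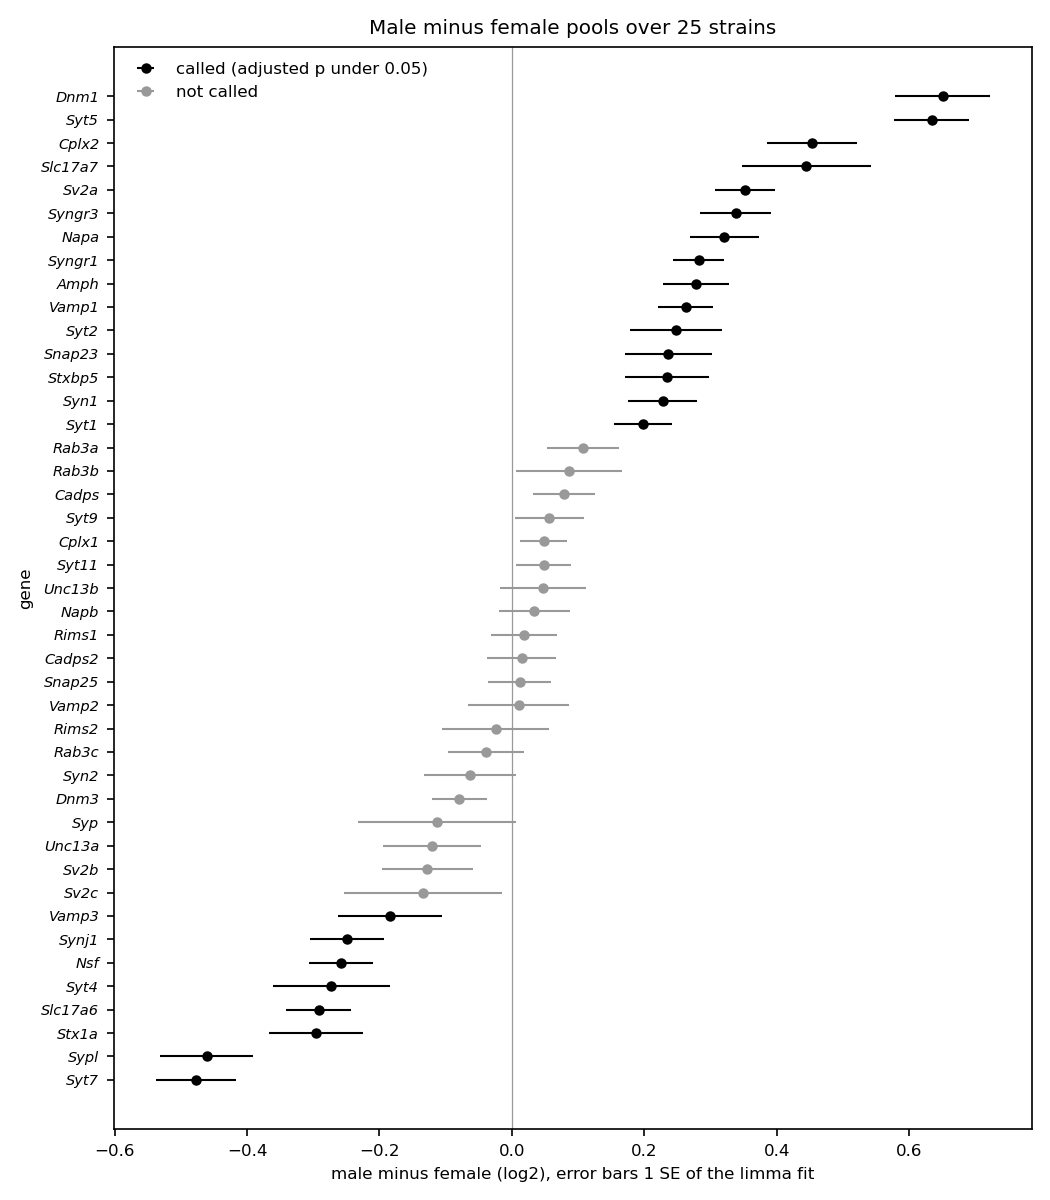
Male minus female difference (log2) of the chosen probe set of each of the 43 genes over 25 strains with 1 SE of the limma fit, genes ordered by size, black where called and grey where not. Dnm1 and Syt5 lie above 0.6, Syt7 and Sypl below −0.4, and 15 called genes lie above and 8 below 0.

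Other genes of the vesicle cycle, from a list of 91 of which 84 were matched, were examined with the same test. Of these, 65 passed the filter and 22 (33.8%) were called for strain. The 6 called ones with the widest ranges were Stxbp6, or amisyn, a SNARE-binding protein (range 1.96, AKR/J highest at 8.27, adjusted p = 5.75e-07); the clathrin adaptor subunits Ap2b1 (1.91) and Ap2a2 (1.48); Pclo, or piccolo, an active zone scaffold (1.87, highest in BUB/BnJ); Rab27b, a GTPase of secretory granules (1.78, highest in BUB/BnJ at 9.99); and Rab3d (1.48). The 19 matched genes that did not pass bear on which family members these ganglia express. Syt10, Syt12, Syt13 and Syt17 of the synaptotagmins and the retinal complexins Cplx3 and Cplx4 stayed below log2 4 in all 50 arrays, as did Slc32a1 and Slc18a3, the vesicular transporters for GABA and acetylcholine. Such values are near the floor of the arrays and do not show that a gene is absent.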

How the data were processed

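RNA of pooled ganglia was hybridised to Affymetrix mouse arrays of 45101 probe sets. The values are intensities on a linear scale that the authors deposited; the submitters' processing notes name GCRMA and R 2.6.2. They were used as log2(intensity + 1). Probe sets above log2 4 in at least 2 arrays were tested (22205 of 45037 that are not controls). Genes were named from the platform annotation: 34945 probe sets had 1 symbol, 932 several and 9160 none, and only the first kind was used for genes.

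limma 3.58.1 in R 4.3.3 fitted strain and sex to all tested probe sets, with Benjamini-Hochberg adjustment (threshold 0.05): a moderated F test over strains, the sex term, and each strain against the other 24 (adjusted over all probe sets and strains, difference of at least 1). The steps were tested on simulated data. Replicate 1 of a strain is the male and replicate 2 the female pool, so the replicate block is sex. Pseudocount, filter, normalization, probe set choice, covariates and left-out arrays were varied. The precision is limited by 2 arrays per strain.

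The genes, lists and tests were chosen with earlier results of these data known. Every one of the 43 genes is named; pool values are given for called genes, and all called gene and strain pairs are listed.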

Additional observations from a re-analysis of the deposited data

How the results depend on the processing

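Over 15 alternative settings the number of genes called for strain was 11 to 18 (16 as reported) and for sex 19 to 26 (23 as reported). Leaving out each of the 50 arrays in turn gave 15 to 23 and 22 to 25, and 10 to 13 called gene and strain pairs (11 as reported). The highest strain count, 23, came without the male P/J array. The number of called pairs moved by over 1.5 times under 3 settings: it was 7 with log2(intensity + 16), 4 with the mean of all passing probe sets of a gene and 7 with the chosen probe set taken from those without the _x_at or _s_at suffix. Without the replicate block, that is with sex left out of the strain fit and strain left out of the sex fit, the counts were 11, 19 and 9.

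With the mean of probe sets, Vamp3, Napb and Rab3c lost their strain call with narrower ranges (0.71, 0.55 and 0.70, adjusted p = 0.103, 0.129 and 0.163), and Vamp1 and Cplx1 lost it with wider ones (1.74 and 1.01, adjusted p = 0.08 and 0.0913). Vamp3 also lost it without suffixed probe sets (range 1.24, adjusted p = 0.331). Slc17a7, Vamp1 and Amph lost it without the block (0.15, 0.73 and 0.658), Vamp1 without SM/J and PL/J (0.0895), and Amph with median centring (0.054) and without the pair of arrays with the highest Gapdh signal (0.0629). Sv2c could not be fitted under the stricter filter, log2 above 5 in 25 arrays. Without the 4 strains with an array that held a transcript of the other sex, an alternative chosen after seeing the data, 17 genes, 23 genes and 11 pairs were called. The cause of these changes was not tested.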
